A study of Mus musculus with 13 samples.

Results

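The genes described here mark the oligodendrocyte lineage, the cells that make myelin in the central nervous system. They were chosen by symbol as 35 genes: 9 of oligodendrocyte precursors, 11 of differentiation and 15 of myelin. Of these, 34 had at least 1 probe set (the group of array probes read as 1 signal) annotated to that symbol alone, out of 18193 genes with such a probe set, and Zfp488 had none named here. Where a gene had several, its brightest over the 13 arrays was taken. A gene was tested where its probe set averaged more than the 40th percentile of all probe sets, a signal of 56.9, which left 29 members of 12918 genes tested.

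Brains of mouse embryos were profiled on Affymetrix arrays at embryonic day 18.5, with 1 embryo per array. There were 7 Meg3 knock-out embryos, set against 6 wild-type embryos. The embryos came from 5 litters, of which 4 held both genotypes. Litter 148 held a knock-out embryo only (knock-out 1). The embryos are labelled as biological replicates. Meg3 is a long non-coding RNA transcribed from the maternal copy of an imprinted cluster, and the title of the series places its question in angiogenic genes. The sources used here give neither the extent of the deletion nor the strain and sex of the embryos. The sample titles name brain and no region or cell type, so fewer cells of a type and less RNA per cell cannot be told apart.

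Oligodendrocytes arise from precursors that carry the receptor Pdgfra and the transcription factors Olig1, Olig2 and Sox10. Committed cells switch on Gpr17 and Bcas1, and mature cells make the myelin proteins Mbp, Mag and Mog. In the mouse, precursors spread through the brain before birth and most myelin forms after birth, with the hindbrain and spinal cord ahead of the forebrain.

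Meg3 signal separated the genotypes: it was 264 to 589 in the 7 knock-out brains and 3109 to 6251 in the 6 wild-type brains (log2 change -3.64 ± 0.20 SE, limma adjusted p = 1.30e-07). Pairs of arrays correlated at 0.893 to 0.990. The 3' to 5' signal ratio of the Actb control probes, a sign of RNA quality, was 1.81 in knock-out 1 and 2.92 in wild-type 2, against 1.32 to 1.495 in the 11 other arrays. The represented markers of the 8 other cell and tissue lists below were above 0 on every array. This does not show that a cell type was present, as Mog, which averaged below the filter, was also above 0 on every array. Neuronal markers were high throughout, with a summed signal of 70889 to 89248 in knock-out and 64867 to 85998 in wild-type brains, as fits the labelled tissue.

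No member passed the test between Meg3 knock-out and wild-type brains. With limma and adjustment over all genes, 0 of the 29 members tested were higher and 0 were lower in knock-out brains, where the background over all genes was 0% higher and 0.0232% lower, which is 3 genes. The members' adjusted p was 1.00 throughout, and 0 members had an unadjusted p under 0.05, by limma (background 1.97%) or by the exact permutation test over arrays (background 2.08%). The groups overlapped for all 29 members (the background without overlap was 0.0774%). The mean was higher in knock-out brains for 17 members and lower for 12 (58.6% higher), beside 65.4% of all genes. The members' median log2 change was 0.03, and that of all genes was 0.04. These signs turn with the scaling: after each array was centred on its median, 5 members were higher and 24 lower, while the median over all genes was -0.15 and that of the members -0.17. On the brightest probe set of each gene, the 95% intervals of all 29 members lay within a 2-fold change in either direction. Those of 18 lay within 1.5-fold. Of all 12918 genes, 12648 had intervals within 2-fold and 10313 within 1.5-fold. Intervals of some other probe sets of these genes passed 2-fold, such as -1.12 to 0.72 for Mbp 1433532_a_at and -0.30 to 1.66 for Tcf7l2 1426639_a_at. Differences inside a gene's interval could not be told from 0 with this number of arrays.

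**Figure D1:**
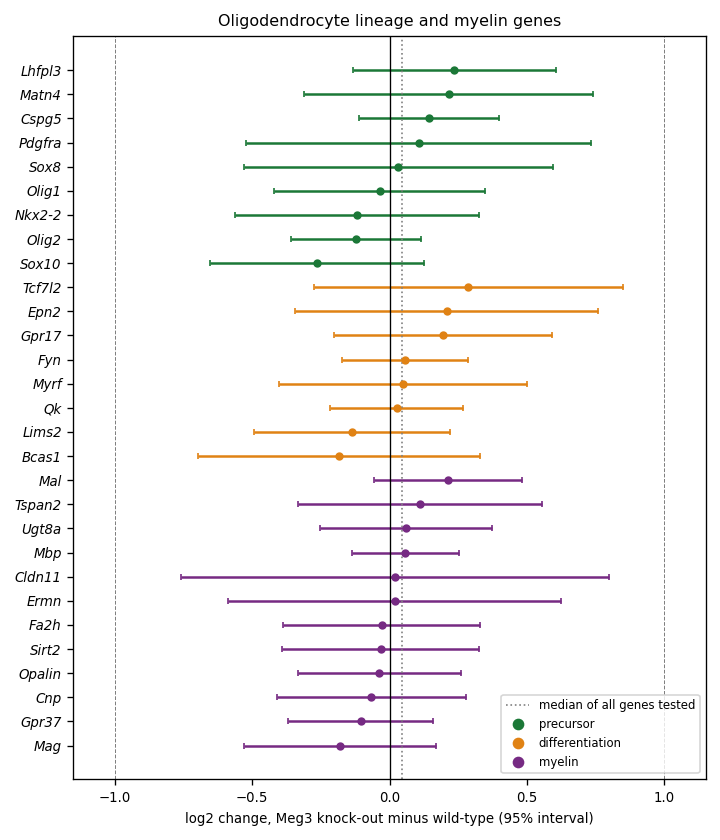
Log2 change of each tested member, Meg3 knock-out minus wild-type (7 and 6 arrays), with its 95% interval from limma, coloured by role. The dotted line marks the median of all genes tested, and every interval includes 0.

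The precursor genes gave 5 higher and 4 lower means, with a median log2 change of 0.03 and a range of -0.26 to 0.24. Olig2, the basic helix-loop-helix factor that specifies the lineage, had a signal of 647, 753 and 988 (lowest, median and highest) in knock-out brains, against 699, 855 and 980 in wild-type brains. The groups overlapped over nearly their whole range, and the lowest array of all was knock-out 2. Its log2 change was -0.12 ± 0.11 (SE, limma unadjusted p = 0.293), and within the 4 litters with both genotypes (219, 238, 250 and 262, here and below in that order) it was -0.27, -0.11, -0.02 and -0.25. Olig1, its neighbour on chromosome 16 and partner in the lineage, had 2359, 3765 and 4340 in knock-out brains and 2085, 4038 and 4438 in wild-type brains. Its log2 change was -0.04 ± 0.18 SE, and its lowest array was wild-type 2. Sox10, the factor that drives myelin gene transcription, had 118, 220 and 318 in knock-out brains and 186, 267 and 342 in wild-type brains. Knock-out 4 lay below every other array, and the rest overlapped. The log2 change of Sox10 was -0.26 ± 0.18 SE, with an interval of -0.65 to 0.13, and its 3 probe sets ranged from -0.26 to 0.35.

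Pdgfra, the receptor through which precursors are held in a dividing state, varied more from brain to brain. Its signal was 774, 1610 and 2996 in knock-out brains and 628, 1721 and 1862 in wild-type brains (log2 change 0.11 ± 0.29 SE). The highest array was a knock-out and the lowest was wild-type 1. Cspg5, a chondroitin sulfate proteoglycan also known as neuroglycan C, had 3704, 4428 and 4989 in knock-out brains and 2823, 4190 and 4558 in wild-type brains (log2 change 0.14 ± 0.12 SE). Lhfpl3, a membrane protein gene used as a precursor marker, had 820, 1029 and 1331 in knock-out brains and 510, 903 and 1091 in wild-type brains. Its log2 change was 0.24 ± 0.17 SE, and that of its second probe set was 0.44, with overlapping arrays. The SoxE factor Sox8 (0.03), the homeobox factor Nkx2-2 (-0.12) and the matrix protein gene Matn4 (0.22) completed the set, with log2 changes all under 1 SE from 0.

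**Figure D2:**
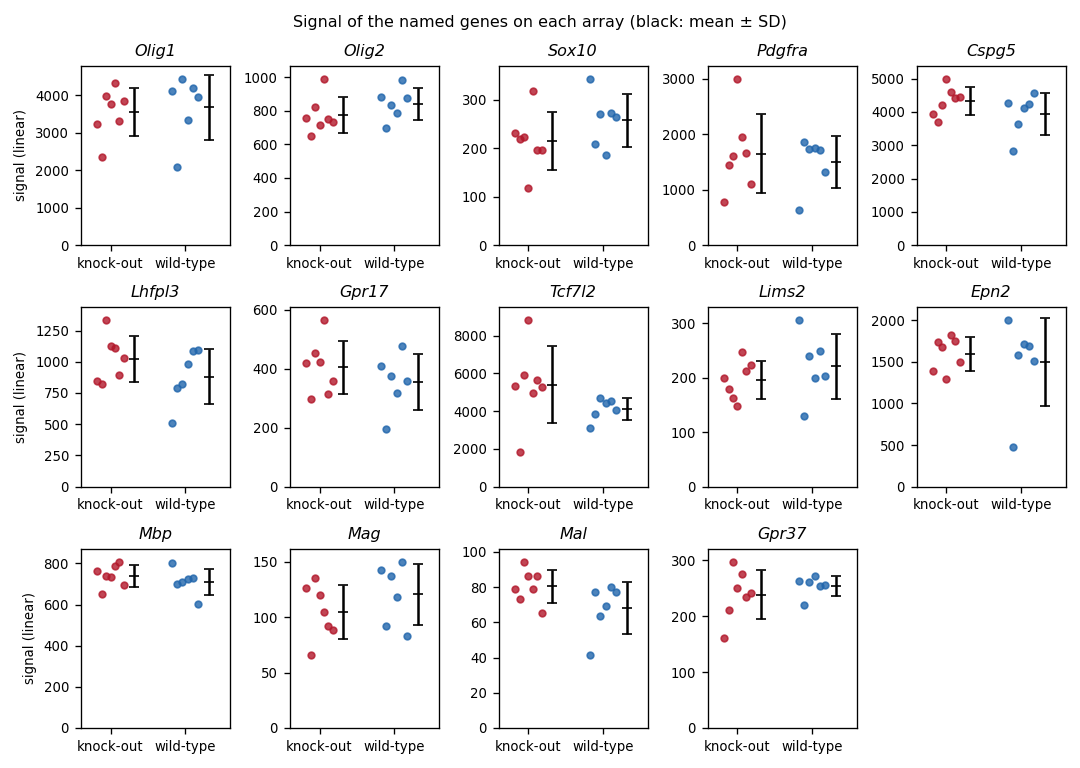
Linear signal of the named members on each array, knock-out on the left and wild-type on the right of each panel, with the mean and SD in black. The groups overlap in every panel.

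To show the sequence in front of a factor and of a receptor of precursors and of an early myelin enzyme, the 250 bases before the start of 3 genes are given from RefSeq on GRCm38.p6, on the plus strand, 5′ to 3′. Capitals mark the letters CANNTG, the E-box bound by the Olig factors and by many other basic helix-loop-helix proteins, and ACAAAG or ACAATG, which Sox proteins can bind, read on both strands. The intervals are chr16:91225300-91225549 for Olig2, chr5:75152001-75152250 for Pdgfra and chr11:100574689-100574938 for Cnp.
Olig2: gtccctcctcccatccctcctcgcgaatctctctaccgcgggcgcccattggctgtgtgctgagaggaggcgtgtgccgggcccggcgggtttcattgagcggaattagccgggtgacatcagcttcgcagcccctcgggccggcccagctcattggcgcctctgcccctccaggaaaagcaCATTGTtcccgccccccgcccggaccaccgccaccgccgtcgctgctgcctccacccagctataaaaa
Pdgfra: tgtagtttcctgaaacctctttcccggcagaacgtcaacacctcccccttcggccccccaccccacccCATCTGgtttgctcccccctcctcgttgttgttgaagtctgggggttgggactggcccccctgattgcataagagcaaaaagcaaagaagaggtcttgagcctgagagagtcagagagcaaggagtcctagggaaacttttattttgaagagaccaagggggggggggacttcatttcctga
Cnp: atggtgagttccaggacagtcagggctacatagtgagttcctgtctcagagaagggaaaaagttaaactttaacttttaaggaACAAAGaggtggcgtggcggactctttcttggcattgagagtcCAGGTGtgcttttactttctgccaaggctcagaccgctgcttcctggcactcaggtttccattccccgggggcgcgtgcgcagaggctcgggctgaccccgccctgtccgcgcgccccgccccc
The Olig2 window held 1 ACAATG, read on the minus strand, and 0 E-boxes. That of Pdgfra held 1 E-box and that of Cnp 1 E-box and 1 ACAAAG. E-boxes were found in 16 of the 31 promoters of 26 member genes (51.6%) and in 66.2% of all 32851 promoters of the same length. ACAAAG was found in 22.6% of member promoters and in 16.5% of all, and ACAATG in 16.1% and in 10.7%. A match describes letters only and shows no binding.

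The differentiation genes gave 6 higher and 2 lower means among 8 tested, with a median log2 change of 0.05 and a range of -0.18 to 0.29. Gpr17, the G protein-coupled receptor that marks newly committed cells, had 299, 420 and 563 in knock-out brains and 197, 366 and 478 in wild-type brains. Its log2 change was 0.20 ± 0.19 SE (limma unadjusted p = 0.309), and the lower part of the knock-out range lay inside the wild-type range. Tcf7l2, a Wnt pathway transcription factor that differentiating cells need and that thalamic neurons also make, had 1804, 5343 and 8798 in knock-out brains and 3094, 4251 and 4687 in wild-type brains. On its brightest probe set knock-out 2 was the lowest of all arrays, whereas the 6 other knock-out brains lay above all 6 wild-type brains. The log2 change of Tcf7l2 was 0.29 ± 0.26 SE, and within the litters it was -0.93, 0.62, 0.24 and 0.37. All 4 of its probe sets had higher means in knock-out brains, with log2 changes of 0.23 to 0.68 and SEs of 0.27 to 0.46. On each probe set other than the brightest, knock-out 1 lay within the wild-type range. On 1429427_s_at, for example, it was 1483 against 1353 to 2279 in wild-type brains.

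Lims2, an adaptor of integrin signalling, had 147, 198 and 246 in knock-out brains and 129, 222 and 305 in wild-type brains (log2 change -0.14 ± 0.17 SE). Epn2, an endocytic adaptor, had 1298, 1674 and 1830 in knock-out brains and 473, 1637 and 1999 in wild-type brains. Its single low value was wild-type 2, the array with the highest Actb ratio, and its log2 change was 0.21 ± 0.26 SE. Bcas1, a marker of cells that have just begun to make myelin, averaged 306 ± 119 in knock-out brains (SD, n = 7) and 343 ± 101 in wild-type brains (SD, n = 6). The remaining log2 changes were 0.05 for Myrf, the transcription factor that switches on myelin genes, 0.06 for the kinase Fyn and 0.03 for the RNA-binding protein Qk. Enpp6, a choline phosphodiesterase of new oligodendrocytes, gave 14.8 to 44.7 in knock-out and 15.9 to 51.7 in wild-type brains, and the homeobox factor Nkx6-2 gave 6.97 to 35.8 in knock-out and 4.00 to 27.5 in wild-type brains. Both averaged less than the filter and were not tested.

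The myelin genes gave 6 higher and 6 lower means among 12 tested, with a median log2 change of -0.00495 and a range of -0.18 to 0.21. The 95% intervals of 10 of 12 lay within 1.5-fold, against 4 of 9 for precursor genes and 4 of 8 for differentiation genes. Over all genes 10313 of 12918 did so. Cldn11 had the widest interval of all 29 members (-0.76 to 0.80). For weak genes the constant of 16 added to the signal narrows the interval. The SE of Mal, for example, was 0.15 with 1 added and 0.13 with 16. Mbp, which encodes myelin basic protein, had 652, 738 and 808 in knock-out brains and 604, 716 and 800 in wild-type brains on its brightest probe set, 1425264_s_at. The groups overlapped almost fully, and the log2 change was 0.06 ± 0.09 SE (interval -0.14 to 0.25). Mag, the adhesion molecule of the innermost myelin layer, had 65.9, 104 and 135 in knock-out brains and 83.1, 128 and 150 in wild-type brains. Its log2 change was -0.18 ± 0.16 SE, with -0.68, -0.09, -0.39 and 0.07 within the litters.

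Mal, a lipid raft protein of myelin, had the lowest unadjusted p of all members (limma p = 0.113, exact permutation p = 0.0816). It had 65.5, 79.1 and 94.4 in knock-out brains and 41.3, 73.3 and 80.2 in wild-type brains, a log2 change of 0.21 ± 0.13 SE. The lowest array was wild-type 1, and the log2 change of the second Mal probe set was -0.34, the opposite sign. Gpr37, a receptor of maturing oligodendrocytes, had 161, 241 and 297 in knock-out brains and 220, 259 and 273 in wild-type brains (log2 change -0.11 ± 0.12 SE), with the wild-type arrays inside the knock-out range.

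The myelin enzyme Cnp (-0.07), the glycolipid enzymes Ugt8a (0.06) and Fa2h (-0.03), the deacetylase Sirt2 (-0.03) and the membrane protein genes Opalin (-0.04) and Tspan2 (0.11) had log2 changes under 1 SE from 0. The same held for the tight junction gene Cldn11 (0.02) and the cytoskeletal gene Ermn (0.02). Mog, a surface protein of mature myelin, averaged below the filter, with 0.740 to 12.1 in knock-out and 1.14 to 18.5 in wild-type brains. Mobp, another protein of compact myelin, averaged below the filter, with 35.1 to 85.8 in knock-out and 28.6 to 50.2 in wild-type brains, as did the gap junction gene Gjc3, with 0.634 to 31.1 and 0.900 to 26.5 in those groups.

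Several lineage genes varied from brain to brain within a genotype. The median within-group SD of the members was 0.330 on the log2 scale, beside 0.274 over all genes, and the log2 changes between genotypes lay between -0.26 and 0.29. Olig1 and Olig2 varied together over the 13 arrays (Pearson r = 0.758, permutation p = 0.00182, adjusted 0.00588; Spearman rho = 0.841, p = 0.000570, adjusted 0.00342; adjusted over 12 relations computed). Their r was 0.774 within knock-out and 0.849 within wild-type arrays, 0.827 after litter means were removed, and 0.677 without the 2 arrays farthest from the median of Olig1. Gpr17 followed Olig2 (r = 0.699, permutation p = 0.00664, adjusted 0.0133; rho = 0.692, p = 0.0108, adjusted 0.0260), with r = 0.864 within knock-out and 0.957 within wild-type arrays, 0.712 after litter means were removed, and 0.597 without the 2 farthest arrays. Pdgfra showed no such relation with Olig1 (r = -0.06, permutation p = 0.841, adjusted 0.841; rho = 0.0659, p = 0.836, adjusted 0.906), and after litter means were removed r was -0.77. For Cnp with Mbp, r was 0.347 (permutation p = 0.248, adjusted 0.331; rho = 0.467, p = 0.110, adjusted 0.164). For Mag with Mbp, r was 0.533 (permutation p = 0.0600, adjusted 0.0900; rho = 0.495, p = 0.0888, adjusted 0.152), and 0.0803 without the 2 farthest arrays.

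**Figure D3:**
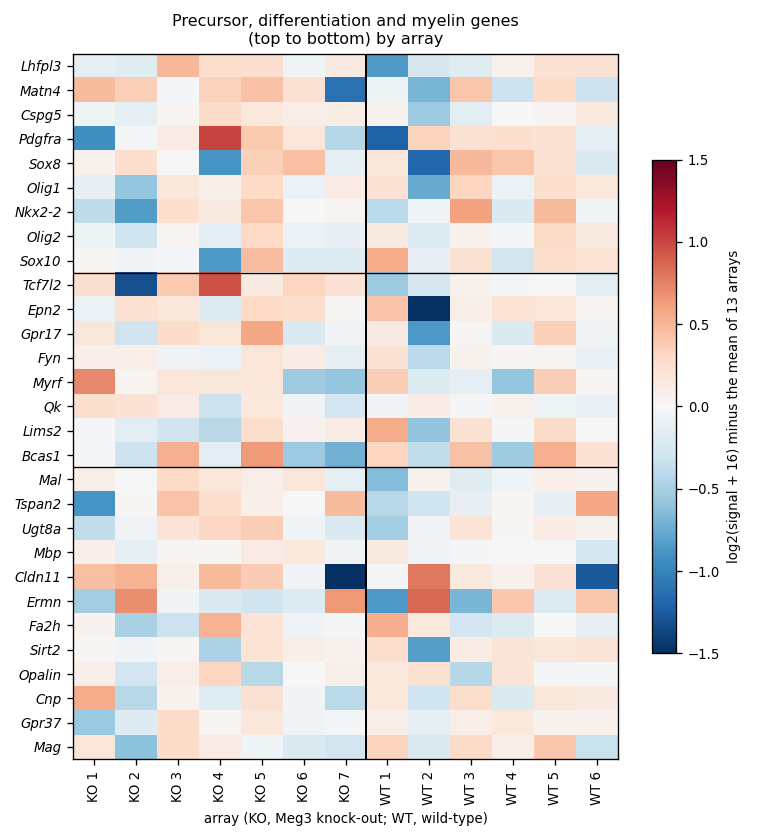
Deviation of each tested member from its mean over 13 arrays on the log2(signal + 16) scale, with the 7 knock-out arrays left of the line and the 6 wild-type arrays right of it. Single arrays stand out (Epn2 in WT 2, Cldn11 in KO 7 and WT 6, Tcf7l2 in KO 2), and no row splits by genotype.

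The 8 probe sets of Mbp did not vary alike. The Mbp locus also makes golli transcripts from an upstream start, which cells outside the oligodendrocyte lineage can express, and which transcripts each probe set reads was not examined here. In Affymetrix naming, the endings _s_at and _x_at mark probe sets with probes that can also match other sequences. The brightest probe set spanned only 1.34-fold over the 13 arrays. The second, 1433532_a_at, spanned 5.43-fold. Its signal was 339, 229, 575, 317, 721, 160 and 140 in knock-out 1 to 7, and 600, 133, 477, 168, 529 and 533 in wild-type 1 to 6. Knock-out 6, knock-out 7, wild-type 2 and wild-type 4 were the 4 lowest, so low arrays came from both genotypes, and its log2 change was -0.20 ± 0.43 SE. Between them, the 8 probe sets gave log2 changes of -0.34 to 0.59. The highest, 1425263_a_at, had a log2 change of 0.59 ± 0.21 SE. By limma over all probe sets its unadjusted p of 0.0143 (adjusted p = 1.00) was the only one under 0.05 among the 58 member probe sets above the filter, beside 3.17% of all probe sets. Of the 11 members with more than 1 such probe set, 5 had both signs (Cnp, Mal, Mbp, Pdgfra and Sox10) and 6 were higher throughout (Epn2, Fyn, Lhfpl3, Qk, Tcf7l2 and Tspan2). The share over all genes with several probe sets was not counted, and 65.4% of all genes tested had a higher mean. After median centring, the brightest probe sets of Fyn, Qk and Tspan2 were lower, and those of Epn2, Lhfpl3 and Tcf7l2 stayed higher.

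**Figure D4:**
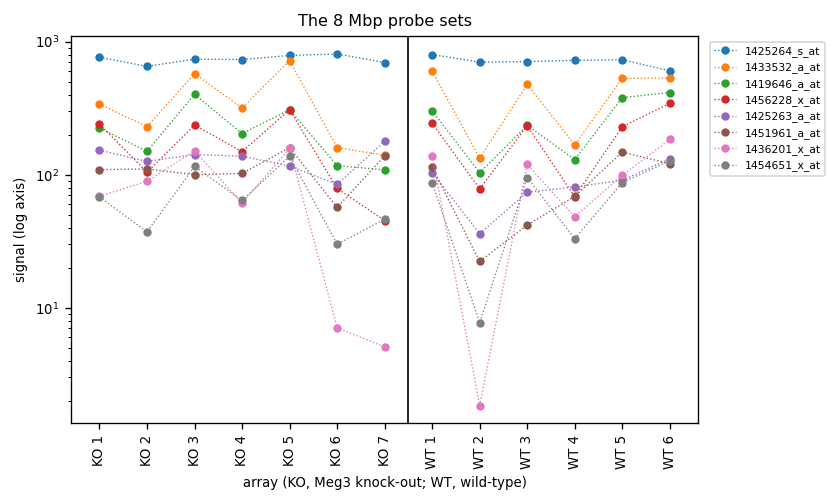
Signal of the 8 Mbp probe sets on each array (log axis), knock-out left of the line and wild-type right of it. The brightest probe set is nearly flat (1.34-fold), whereas several others are low on KO 6, KO 7, WT 2 and WT 4.

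The same 4 arrays had the lowest mean level of the caudal Hox genes, which mark hindbrain and spinal cord. Single genes of the list differed. Hoxb5 was 0.976 to 3.32 in those 4 arrays and 82.1 to 1451 in the others, whereas Hoxb7 was highest in wild-type 2 (80.7). Of 18 Hox genes listed, 16 had a probe set, 8 averaged above the filter and none was at 0. Their summed signal was 306 to 3357 in knock-out and 329 to 6720 in wild-type brains, a 22.0-fold range over the arrays, and 0 of the 8 tested passed the threshold between genotypes. The mean log2 level of the 16 genes, those below the filter included, was 4.97 to 5.25 in the 4 lowest arrays and 5.97 to 7.79 in the 9 others. Those 4 arrays were also the lowest for 4 of the 8 Mbp probe sets, for Bcas1 (180 to 233 there) and for Myrf. They were not the 4 lowest for any probe set above the filter of Olig1, Olig2, Sox10, Gpr17, Cnp or Mag. The share of all probe sets with these 4 arrays lowest was not counted, so the match is not shown to be particular to these genes. Over all 13 arrays the Hox level correlated with the second Mbp probe set (r = 0.827, permutation p = 0.00118, adjusted 0.00588; rho = 0.720, p = 0.00750, adjusted 0.0225), with r = 0.696 within knock-out and 0.946 within wild-type arrays, 0.953 after litter means were removed and 0.764 without the 2 farthest arrays. It also correlated with Bcas1 (r = 0.757, permutation p = 0.00485, adjusted 0.0116; rho = 0.632, p = 0.0245, adjusted 0.0490), with r = 0.694 within knock-out and 0.844 within wild-type arrays, 0.895 after litter means were removed and 0.654 without the 2 farthest arrays. Among the 9 arrays outside the 4 lowest, the Hox level showed no clear relation with the second Mbp probe set (r = 0.267, exact permutation p = 0.486, adjusted over 3 relations 0.694; rho = 0.300, p = 0.437, adjusted 0.655) or with Bcas1 (r = 0.152, exact permutation p = 0.694, adjusted 0.694; rho = -0.07, p = 0.880, adjusted 0.880). The brightest Mbp probe set showed no clear relation with the Hox level over the 13 arrays (r = -0.09, permutation p = 0.777, adjusted 0.841; rho = -0.04, p = 0.906, adjusted 0.906). The part of the Hox level in the Mbp and Bcas1 signals was not tested.

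Bcas1 and the second Mbp probe set moved together also among those 9 arrays (r = 0.932, exact permutation p = 0.000620, adjusted over 3 relations 0.00186; rho = 0.817, p = 0.0108, adjusted 0.0323). Over all 13 arrays r was 0.957 (permutation p = 2.00e-05, adjusted 0.000240; rho = 0.907, p = 0.000100, adjusted 0.00120), with 0.992 within knock-out and 0.930 within wild-type arrays and 0.967 without the 2 farthest arrays. After litter means were removed it was 0.961. Bcas1 also followed Olig2 (r = 0.785, permutation p = 0.00196, adjusted 0.00588; rho = 0.753, p = 0.00436, adjusted 0.0174), with 0.756 within knock-out and 0.815 within wild-type arrays, 0.945 after litter means were removed, and 0.673 without the 2 farthest arrays. The relations of Bcas1, the Hox level with the second Mbp probe set, the first Mbp probe set with the second, and Cldn11 with the meninges list were chosen after the values had been seen. Their p-values, adjusted only over the relations computed, do not allow for that choice. How many other pairs of probe sets vary together as closely over these arrays was not counted. The first and second Mbp probe sets showed no clear relation (r = 0.115, permutation p = 0.713, adjusted 0.841; rho = 0.346, p = 0.247, adjusted 0.296).

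**Figure D5:**
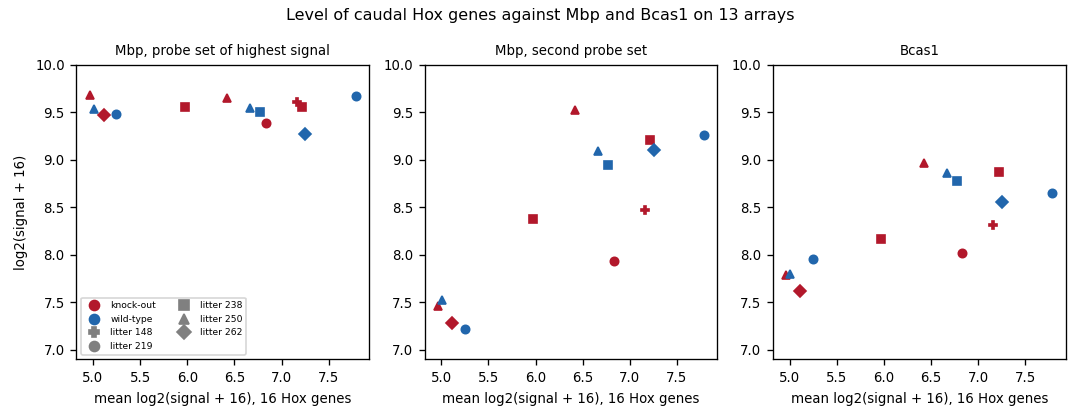
Level of the caudal Hox genes (mean log2(signal + 16) of 16 genes) against the log2(signal + 16) of Mbp probe sets and Bcas1 on 13 arrays, with genotype by colour and litter by symbol. The 4 arrays with a Hox level of 4.97 to 5.25 are low in Bcas1 and in the second Mbp probe set, and the brightest Mbp probe set stays level.

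Cldn11, which oligodendrocytes and cells of the meninges both express, was low in both brains of litter 262. Its signal was 152 in knock-out 7 and 226 in wild-type 6, against 543 to 984 in the 11 other arrays. The summed signal of 6 meningeal fibroblast markers was also lowest in those brains, at 3112 in knock-out 7 and 3527 in wild-type 6, within overall ranges of 3112 to 10054 in knock-out and 3527 to 11068 in wild-type brains. The link was not particular to meninges: those brains also had the 2 lowest sums of microglial (2178 in knock-out 7 and 2087 in wild-type 6), endothelial (2481 in knock-out 7 and 2314 in wild-type 6, beside 2484 in wild-type 2) and Schwann cell markers, and the 2 highest of neuronal markers (89248 in knock-out 7 and 85998 in wild-type 6). By the mean log2 level of each list, the endothelial and neuronal ranks were the same. The microglial level was lower in wild-type 2 (7.984) than in knock-out 7 (7.996). The Schwann cell level was lowest in knock-out 3 (5.90), with 6.57 in wild-type 6. Over the 13 arrays, r of the Cldn11 log2 signal with the mean log2 level of the meningeal markers was 0.750 (permutation p = 0.00834, adjusted 0.0143; rho = 0.363, p = 0.226, adjusted 0.296). Without knock-out 7 and wild-type 6 r was -0.11, so the relation rests on litter 262, and the part of these cell types in the Cldn11 signal was not tested. Markers of Schwann cells, which make myelin outside the brain, gave a sum of 697 (knock-out 7) to 1144 in knock-out and 734 (wild-type 6) to 1099 in wild-type brains, with 4 of 6 markers represented and 1, Pmp22, above the filter (log2 change 0.01). Pmp22 made up most of that sum, with means of 851 in knock-out and 844 in wild-type brains.

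A wider set of lineage genes also held no call. Of 67 further genes listed, 61 had a probe set and 55 were tested: 33 had higher and 22 lower means in knock-out brains, with a median log2 change of 0.03, and 0 passed the adjusted threshold. One had an unadjusted p under 0.05, which is 1.82% of them beside 1.97% of all genes. It was Id4, an inhibitor of differentiation (log2 change 0.26 ± 0.11 SE, limma unadjusted p = 0.0381, adjusted 1.00), with 7103 ± 949 in knock-out brains (SD, n = 7) and 5907 ± 524 in wild-type brains (SD, n = 6). Among 8 precursor surface and matrix genes, 6 means were higher, led by tenascin-R, Tnr (0.28 ± 0.15 SE), and the cadherin Pcdh15 (0.36 ± 0.25 SE). Among 15 transcription and chromatin regulators 10 means were higher, and the zinc finger factor Yy1 had the next smallest p (0.10 ± 0.10 SE). The 14 ligands and receptors acting on precursors divided into 8 higher and 6 lower, with Nrg1, a ligand of ErbB receptors, at 0.41 ± 0.22 SE and the hedgehog target Gli1 at -0.27 ± 0.16 SE. The 18 genes of myelin and mature cells divided into 9 and 9, with Plekhh1 at 0.27 ± 0.16 SE and the ceramide synthase Cers2 at 0.19 ± 0.14 SE.

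Markers of other cell types did not pass the adjusted threshold in either direction. For neurons 6 of 7 means were higher in knock-out brains (Dcx 0.16, Map2 0.16), for astrocytes 4 of 6 (Slc1a2 0.24, Gfap -0.31), for microglia 5 of 6 (Cx3cr1 0.31, limma unadjusted p = 0.0135; Aif1 0.15), and for endothelium 4 of 5 (Pecam1 0.24, Cdh5 -0.36). For meninges 3 of 6 means were higher (Dcn 0.22, Col1a1 -0.30), and for Hox genes 3 of 8 (Hoxb6 -0.63, Hoxb5 -0.70). All 4 choroid plexus markers tested had lower means in knock-out brains (Clic6 -0.84, Sostdc1 -0.61, limma adjusted p = 1.00), with sums of 7915 to 30483 in knock-out and 22003 to 36383 in wild-type brains. The part of these tissues in the members' signals was not tested.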

How the data were processed

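The deposited table holds linear probe set intensities for 13 arrays (45101 probe sets, 64 of them controls), not log-transformed by the authors. Per the labels' protocols, biotinylated cRNA was made by one-cycle labelling, starting with 5 µg of total RNA per brain. The software, summary method and scaling are not given in the sources used here. Genotype came from the sample titles and litter from the leading number of the embryo label. Probe sets with 1 gene symbol (34945) were named from the platform annotation, and 932 with several symbols and 9160 without a name were left out.

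Intensities were turned into log2(signal + 16), which understates the changes of weak genes. The filter kept probe sets above the 40th percentile of mean log2, and the brightest represented each gene. Genotypes were compared by linear models with moderated variances (limma 3.58.1, R 4.3.3), with two-sided p-values Benjamini-Hochberg adjusted over 12918 genes, with a threshold of 0.05 and no litter term. Two-sided exact permutation tests ran over 1716 splits (smallest p 0.000583), and correlations used 100000 permutations, or all 362880 pairings for 9 arrays (scipy 1.17.1, Python 3.11.15). Neither allows for litter. Figures used matplotlib 3.10.9. The gene test was tested on simulated data. Per-array values are given for Olig1, Olig2, Sox10, Pdgfra, Gpr17, Mbp and Mag and for the 4 members of each role with the smallest p. From each further list the 2 genes with the smallest p are named. Other genes given with array values (Bcas1, Cldn11 and the second Mbp probe set) were chosen after their values were seen. The members and lists were chosen with earlier results of these data known. Alternatives changed the pseudocount, filter, scaling, probe set, arrays and model terms. No read depth applies, and the number of arrays limits the precision.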

Additional observations from a re-analysis of the deposited data

Results flagged for a closer look

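In 11 of 58 groups of arrays (each member's 7 knock-out or 6 wild-type arrays), 1 array stood apart by Dixon's criterion. Its gap to the nearest other array, as a share of the group's whole range, passed the 95% critical value. Gap and range were taken on the log2 scale used for the gene tests, whereas the signals given below are linear. Chance gives about 1 in 20 such groups. Over all genes tested, 3667 of 25836 groups did so (14.2%), beside 19.0% for the members. On the log2 scale all 11 were low values and fell on 10 members, and 87.8% of those over all genes were low values too. Linear signals give other shares, and the groups passing on the linear scale were not counted. Wild-type 1 gave 1138 and wild-type 2 gave 760 of the low values over all genes, so values on these arrays are not particular to the members.

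Wild-type 2, the array with the highest Actb 3' to 5' ratio, gave 3 of them. Epn2 was 473 in wild-type 2, below the next value of 1516 (share 0.806). Sirt2 was 1062 in wild-type 2, below the next value of 2052 (share 0.869). The receptor gene Gpr37 was 220 in wild-type 2, below the next value of 254 (share 0.657). The part of RNA quality in these values was not tested. Wild-type 1 gave 3 more. Pdgfra was 628 in wild-type 1, below the next value of 1328 (share 0.688). Mal was 41.3 in wild-type 1, below the next value of 63.4 (share 0.629). Ugt8a was 112 in wild-type 1, below the next value of 161 (share 0.647). The other 5 were in knock-out arrays. Cldn11 was 152 in knock-out 7, below the next value of 543 (share 0.755). Matn4 was 60.4 in knock-out 7, below the next value of 146 (share 0.682). Tcf7l2 was 1804 in knock-out 2, below the next value of 4959 (share 0.637). Sirt2 was 1372 in knock-out 4, below the next value of 1840 (share 0.629). Tspan2 was 221 in knock-out 1, below the next value of 423 (share 0.654).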

How the results depend on the processing

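Under all 36 alternatives, 0 members passed the adjusted threshold in either direction, and Meg3 stayed lower. Leaving out litter 148 is the same fit as leaving out knock-out 1, and both are counted here. The number of genes higher in knock-out brains, 0 in the reported fit, was 0 to 1 with 1 array or 1 litter left out (1 without wild-type 3 or litter 238) and 1 without wild-type 1, wild-type 2 and knock-out 1. Of 1035 member values under the alternatives, 107 turned sign, none of them past the threshold, and 7 members kept their sign throughout (Olig2, Lhfpl3, Matn4, Bcas1, Tcf7l2, Mag and Gpr37). The cause of the turned signs was not tested. Values are log2 changes, knock-out minus wild-type. The number of arrays and the unstated scaling of the deposited values limit the sign of small changes, and weak signals near the filter limit Myrf, Mal, Opalin, Ermn and Fa2h. Median centring moved the median of all genes to -0.15 and gave role medians of -0.17 (precursor), -0.14 (differentiation) and -0.20 (myelin). It gave Pdgfra -0.0909, Sox8 -0.17, Cspg5 -0.0527, Gpr17 -0.000937, Myrf -0.15, Fyn -0.14, Qk -0.17, Mbp -0.14, Ugt8a -0.14, Cldn11 -0.18, Ermn -0.18 and Tspan2 -0.0869, and there Olig2 and Sox10 had an unadjusted limma p under 0.05 (lowest member adjusted p 0.635). Over all 12918 genes such a p came with a higher mean for 23 and with a lower mean for 736. Quantile normalization, with a median of -0.03 over all genes and -0.11 over the myelin genes, gave Sox8 -0.12, Myrf -0.14, Mbp -0.00811, Ugt8a -0.12, Cldn11 -0.0519, Ermn -0.17 and Tspan2 -0.0122, and there Sox10, at -0.40, had an unadjusted limma p under 0.05. An equal trimmed mean gave Sox8 -0.0186, Qk -0.0292, Cldn11 -0.034 and Ermn -0.0229, and a pseudocount of 64 gave Ermn -0.00479. Litter as a block gave Myrf -0.0721 and Cldn11 -0.0199. The replicate block gave Ermn -0.088 and 0 members called, and the numbers do not pair the embryos: the deviations of same-numbered arrays from their group means correlated at -0.26 to 0.40, and 1 of 6 wild-type arrays matched its own number best by this measure. As no wild-type brain shares the number of knock-out 7, the replicate block gave the same log2 changes as leaving that array out. The Actb ratio as a covariate gave Sox8 -0.15 and Epn2 -0.0527. Without wild-type 2 and knock-out 1, Sox8 was -0.21, Myrf -0.10, Epn2 -0.0608 and Fyn -0.0249. The mean of all probe sets gave Sox10 0.0131, Cnp 0.0446 and Mal -0.0657. The next 3 settings were chosen after seeing the data. The second probe set gave Mbp -0.20, Cnp 0.10 and Mal -0.34, and the Hox level as a covariate gave Ermn -0.044. Without wild-type 1, wild-type 2 and knock-out 1, the precursor median was -0.16, Sox8 -0.22, Myrf -0.0141, Epn2 -0.00142, Ugt8a -0.000988, Opalin 0.0344 and Fa2h 0.13. With 1 array or litter left out, values ranged over -0.19 to 0.0591 for Olig1, -0.13 to 0.27 for Pdgfra, -0.25 to 0.32 for Sox8, -0.21 to 0.0119 for Nkx2-2, -0.0671 to 0.16 for Myrf, -0.0923 to 0.32 for Epn2, -0.0157 to 0.11 for Fyn, -0.0122 to 0.0818 for Qk and -0.27 to 0.0106 for Lims2. They ranged over -0.16 to 0.0148 for Cnp, -0.0554 to 0.13 for Ugt8a, -0.22 to 0.0951 for Opalin, -0.23 to 0.32 for Cldn11, -0.15 to 0.19 for Ermn, -0.13 to 0.22 for Fa2h, -0.20 to 0.0682 for Sirt2 and -0.0328 to 0.27 for Tspan2. Tcf7l2 had an unadjusted limma p under 0.05 without knock-out 2 or litter 219, and Matn4 without knock-out 7 and under the replicate block.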

Other observations

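The 2 brains of litter 262, knock-out 7 and wild-type 6, stood apart on many probe sets of the array. They were the 2 highest of 13 arrays on 10.7% of all 23451 probe sets above the filter and the 2 lowest on 7.41%. For the lineage genes the share of highest values was near that background, at 6 of 58 member probe sets (10.3%), and is no result about these genes. The 6 were 1 probe set each of Pdgfra, Qk, Tcf7l2 and Cnp and 2 of Tspan2. Pdgfra 1421916_at, for example, was 361 in knock-out 7 and 391 in wild-type 6, against 66.4 to 241 in the 11 other arrays. Cldn11 was the only member probe set on which these brains were the 2 lowest (1.72%). These counts were made after the values were seen.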
